A study of Mus musculus with 12 samples.

Results

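Drd1, Drd2, Adora2a, Penk, Tac1, Ppp1r1b, Pde10a, Rgs9 and Gng7 are 9 genes that mark the projection neurons of the striatum, taken by their symbols from a table of 19775 genes. Their transcripts were measured in samples described as whole brain. These came from 12 male C57BL/6N mice at about postnatal day 120, with 4 mice in each of 3 genotypes. WT mice carried both intact copies of Slc6a20a, a gene for a transporter of proline and glycine. Slc6a20a+/- (HT) mice lacked exon 3 of this gene in 1 copy and Slc6a20a-/- (HM) mice lacked it in both, and the mice came from crosses of heterozygous parents. All 9 genes were found, and all 9 exceeded the minimum for testing, a mean of 10 normalized counts. A normalized count is the estimated number of reads of a gene after scaling for the depth of its library. The paper describes whole-brain lysates and mentions no microdissection, so the striatum was taken to be only part of each sample. Which other regions each sample held in full was not tested. In such bulk samples fewer cells of a type cannot be told apart from less RNA per cell.

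Striatal projection neurons are the GABAergic output cells of the striatum and fall into the direct and the indirect pathway, which act in opposite directions on movement. Direct pathway cells carry the dopamine D1 receptor and make substance P, whereas indirect pathway cells carry the dopamine D2 receptor and the adenosine receptor encoded by Adora2a and make enkephalin. In both types these receptors act on cAMP, which is made by adenylyl cyclase 5 and broken down by phosphodiesterases, and the cAMP signal reaches the phosphatase inhibitor DARPP-32, the product of Ppp1r1b.

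The sums of normalized counts were 33284951.2 to 33748623.0 per mouse, and any pair of libraries correlated across genes at r = 0.98797 to 0.99138. Slc6a20a fell with each lost copy, from 679.3 ± 70.1 in WT mice to 345.0 ± 29.1 in HT mice and 64.5 ± 9.9 in HM mice (SD, n = 4), which was 50.8% and 9.5% of the WT mean (limma adjusted p = 0.000938 for HT and 1.75e-08 for HM against WT). Read totals before normalization were not used here, so the depth behind single values is unknown. The sources name no shared litter or day for mice of different genotypes. The column names carry animal numbers whose first digits some mice of different genotypes share, and their meaning is not stated. P-values measure the spread between these mice.

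Of the 3 receptor genes Drd1 is that of the direct pathway, and Drd2 and Adora2a are those of the indirect pathway. Drd1, the D1 receptor gene at chromosome 13, 54051183 to 54055705 on the minus strand (GRCm38), read 928.9, 1090.3, 1088.5 and 1166.7 normalized counts in WT mice 1 to 4. It read 1140.8, 1197.3, 1172.3 and 1074.5 in HT mice and 1071.5, 1107.0, 1076.0 and 957.8 in HM mice. WT mouse 1 and HM mouse 4 were the lowest, and the values of all 3 genotypes overlapped. Drd2, the D2 receptor gene at chromosome 9, 49340627 to 49408177 on the plus strand, read 1040.4, 1026.5, 1057.0 and 1130.0 in WT mice, 1054.0, 1162.4, 1220.0 and 1121.1 in HT mice and 1196.8, 1080.9, 1098.5 and 1097.9 in HM mice. HM mouse 1 lay above the other 3 HM mice, which were within 1080.9 to 1098.5. Adora2a, the adenosine receptor gene at chromosome 10, 75316877 to 75334784 on the plus strand, read 1486.0, 1477.6, 1444.5 and 1713.8 in WT mice, 1495.9, 1617.6, 1583.0 and 1754.0 in HT mice and 1693.5, 1506.7, 1472.9 and 1321.1 in HM mice. It had the widest spread of the 9 genes, with a within-genotype SD of 0.12 on the log2 scale, followed by Drd1 with 0.104.

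The peptide genes varied less between mice. Penk, the precursor of enkephalin at chromosome 4, 4133531 to 4138819 on the minus strand, averaged 6225.8 ± 225.6 normalized counts in WT mice, 6349.5 ± 295.7 in HT mice and 6075.7 ± 238.7 in HM mice (SD, n = 4). Tac1, the precursor of substance P at chromosome 6, 7554879 to 7565834 on the plus strand, averaged 1434.3 ± 82.0, 1444.2 ± 34.3 and 1392.1 ± 51.8. Their within-genotype SDs were 0.0594 for Penk and 0.06 for Tac1 on the log2 scale, the lowest of the 9. The log2 ratio of Tac1 to Penk was -2.12 ± 0.046 in WT mice, -2.14 ± 0.064 in HT mice and -2.13 ± 0.062 in HM mice. The log2 ratio of the receptors of the direct and indirect pathways, Drd1 to Drd2, was 0.003 ± 0.113, 0.009 ± 0.085 and -0.088 ± 0.109. Neither ratio was separate between genotypes, since the ranges over mice overlapped. The ratios were not tested.

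The other 4 genes act inside the cell and belong to both pathways. Ppp1r1b, at chromosome 11, 98348404 to 98357796 on the plus strand, read 9907.4, 9412.3, 8893.7 and 9402.2 normalized counts in WT mice, 8916.7, 9991.3, 10151.7 and 9280.0 in HT mice and 8844.0, 8575.9, 9182.7 and 9081.6 in HM mice. Pde10a, the phosphodiesterase that breaks down cAMP and cGMP in these cells, at chromosome 17, 8525372 to 8986648 on the plus strand, read 8922.4, 10271.6, 10383.1 and 9861.8 in WT mice, 10777.7, 11617.4, 10008.8 and 10321.7 in HT mice and 10646.9, 10220.2, 10634.7 and 10639.5 in HM mice. WT mouse 1 was the highest WT mouse for Ppp1r1b and the lowest of all 12 mice for Pde10a. Rgs9, which speeds the end of G protein signals, at chromosome 11, 109225355 to 109298129 on the minus strand, read 2628.4, 3006.5, 2858.0 and 2930.5 in WT mice, 2796.1, 3130.3, 2992.6 and 2796.4 in HT mice and 2922.5, 2866.3, 2799.3 and 2840.8 in HM mice. Gng7, the G protein gamma subunit through which receptors act on adenylyl cyclase in the striatum, at chromosome 10, 80948624 to 81014945 on the minus strand, read 8062.1, 8035.2, 8219.2 and 8738.4 in WT mice, 7843.2, 8947.1, 8582.4 and 8665.7 in HT mice and 8126.1, 8093.1, 7548.3 and 8009.0 in HM mice. For Rgs9 and Gng7, too, mice of all genotypes overlapped.

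Penk and Ppp1r1b are overlapped on the opposite strand by A830012C17Rik, with a mean of 17.9 normalized counts, and 1700003D09Rik, with 91.0. The sources used here do not state counting by strand, so reads of these pairs may be shared. Per kb of the longest coding transcript, Ppp1r1b stood highest at 4649.3 ± 247.7 and Penk next at 4290.5 ± 178.6, then Gng7, Pde10a, Tac1, Rgs9, Adora2a, Drd2 and, lowest, Drd1 at 304.6 ± 22.5 normalized counts per kb (SD, 12 mice). The ranges over mice of Ppp1r1b (4285.8 to 5073.3) and Penk (4014.2 to 4613.5) overlapped. With the shortest coding transcript Gng7 came first at 9416.2 per kb, so the upper part of the order depends on the transcript length used.

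**Figure D1:**
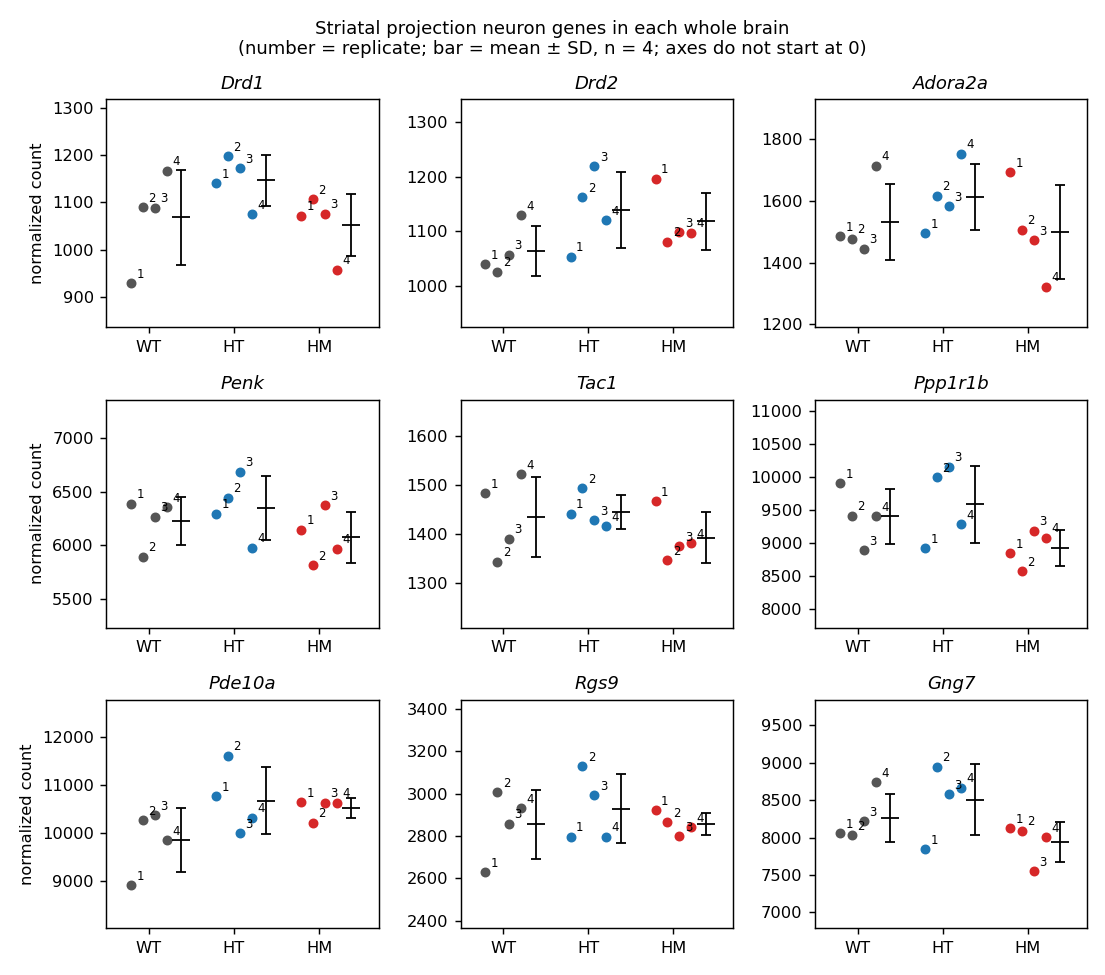
Normalized counts (y axis, linear, not starting at 0) of the 9 genes in each mouse by genotype (x axis), with the replicate number beside each point and the mean ± SD of 4 mice as a bar. The groups overlap for every gene, and WT mouse 1 sits low for Drd1, Pde10a and Rgs9 (928.9, 8922.4 and 2628.4).

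The members' spread was close to that of other genes of like abundance. The median within-genotype SD was 0.0686 on the log2 scale over the 9 members, 0.0696 over the 6636 genes averaging 1000 normalized counts or more and 0.119 over all 18006 genes averaging 10 or more. Adora2a and Drd1 had a larger SD than 91.1% and 84.8% of the 6636 genes, and Penk a larger SD than 33.6%.

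HT mice were compared with WT mice to ask what the loss of 1 copy did. All 9 genes had a higher mean in HT mice, whereas 50.0% of the 18004 genes tested had a log2 fold change above 0. The sizes were small, with a median log2 fold change of 0.041 beside 0 over all genes. Pde10a differed most, at 1.08-fold (95% confidence interval 0.996 to 1.18; log2 fold change 0.12, SE 0.056, exact permutation p = 0.143, limma adjusted p = 0.775), followed by Drd1 at 1.08-fold (0.97 to 1.19, adjusted p = 0.849) and Drd2 at 1.07-fold (0.981 to 1.17, adjusted p = 0.83). Tac1 differed least at 1.01-fold (0.933 to 1.09). The order of the first 3 rested on WT mouse 1, without which the log2 fold change was 0.069 for Pde10a, 0.039 for Drd1 and 0.088 for Drd2. With a block on the first digits of the animal numbers in the column names it was 0.053, 0.036 and 0.102. WT mouse 1 does not enter that estimate either, since no HT mouse shares its first digits. Without HT mouse 2 Pde10a was at 0.075 and without HT mouse 3 Drd2 was at 0.065. None of the 9 genes passed limma's test at an adjusted p of 0.05 (0.00555% of all genes did), and none reached an unadjusted p of 0.05 (3.16% of all genes were higher and 3.26% lower). No gene had groups that did not overlap (1.82% of all genes higher, 1.91% lower), and the two-sided exact permutation p of single genes, which cannot go below 0.0286 with 4 mice against 4, was at least 0.143. Without 1 mouse at a time 8 or 9 of the 9 genes were above 0.

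HM mice were compared with WT mice for the loss of both copies. Only Pde10a, Drd2 and Rgs9 had a log2 fold change above 0, so 3 of 9 beside 49.8% of all genes, and the median of the 9 was -0.033. Pde10a was 1.07-fold (0.998 to 1.15, exact permutation p = 0.0857, limma adjusted p = 0.724) and Drd2 1.05-fold (0.969 to 1.14, adjusted p = 0.809). The log2 fold change of Pde10a, 0.098 with all mice, was 0.051 without WT mouse 1. It was 0.152 with the block on animal number, an estimate from only HM mice 3 and 4 and WT mice 1 and 2. The value of Drd2, 0.073 with all mice, was 0.04 without HM mouse 1. Ppp1r1b was at 0.949-fold (0.893 to 1.01, adjusted p = 0.74) and Gng7 at 0.961-fold (0.905 to 1.02, adjusted p = 0.805). The log2 fold change of Gng7, -0.057 with all mice, was -0.03 without WT mouse 4 and -0.032 without HM mouse 3. Rgs9 was at 1-fold with an interval of 0.934 to 1.07. No gene passed at an adjusted p of 0.05 (0.0111% of all genes did) or an unadjusted p of 0.05 (3.93% higher, 3.05% lower), and no groups were separate (2.41% higher, 1.81% lower). The count above 0 rose to 5 of 9 without WT mouse 4 or without HM mouse 4.

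HM mice had the lower mean for every one of the 9 genes when set against HT mice, with 0 of 9 log2 fold changes above 0 beside 49.5% of 17986 genes and a median of -0.063 beside -0.001. Ppp1r1b was at 0.932-fold (0.873 to 0.994, exact permutation p = 0.114, limma adjusted p = 1) and Gng7 at 0.934-fold (0.876 to 0.996, exact permutation p = 0.114, limma adjusted p = 1). Those were 2 of 9 genes at an unadjusted p of 0.05 by limma, beside 1.62% of all genes lower and 2.11% higher. Drd1 was at 0.918-fold (0.843 to 1, exact permutation p = 0.0857) and Adora2a at 0.927-fold (0.833 to 1.03, exact permutation p = 0.257), both with an adjusted p of 1. Without HM mouse 4 their log2 fold changes were -0.078 and -0.05, in place of -0.12 and -0.11. None of the 9 passed the adjusted test (0.00556% of all genes did), and no groups were separate (1.14% of all genes lower, 1.24% higher). The HT mice enter both this comparison and that with WT mice, so the 2 counts are not independent. In the same comparison all 5 microglial markers (3 at an unadjusted p of 0.05, median -0.157) and all 5 choroid plexus markers (median -0.351) were below 0, and all 5 erythrocyte markers (4 at that p, median 0.97) and all 8 olfactory bulb markers (5 at that p, median 0.589) were above 0. Summed microglial counts were 4289.7 to 4881.1 in HM and 5022.1 to 5271.0 in HT mice. Their part in the members' values was not tested.

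**Figure D2:**
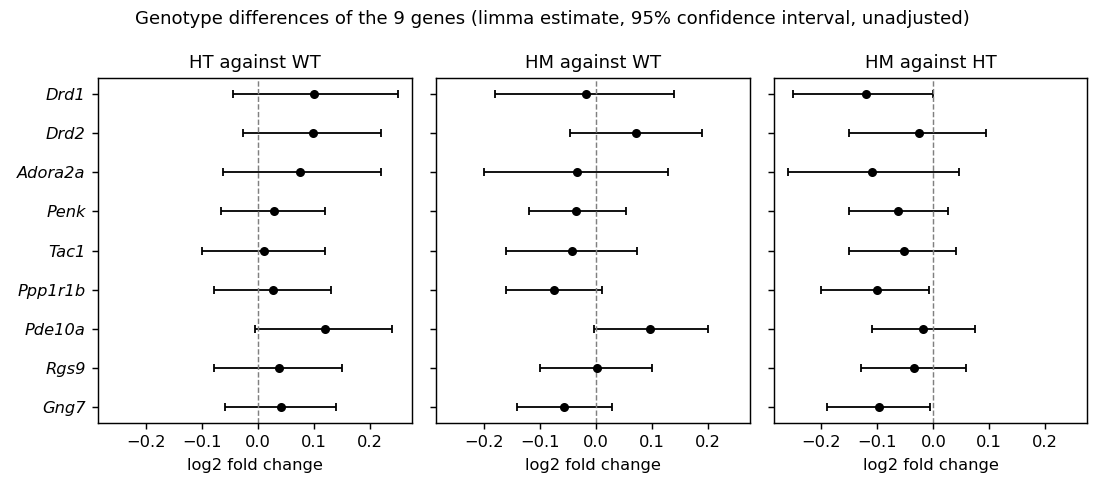
Log2 fold change (x axis) of each gene (y axis) in the 3 comparisons, as the limma estimate with its unadjusted 95% confidence interval. All 9 points lie above 0 for HT against WT and below 0 for HM against HT, and only the intervals of Ppp1r1b and Gng7 in HM against HT leave out 0.

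Other genes of the same cells were read beside the members, and single ones differed by more than any member. Of 29 further genes of striatal projection neurons 28 were measured, and Gpr52 was not analysed here. In HT against WT 24 of the 28 were above 0, beside 50.0% of all genes, and the median log2 fold change was 0.083. None passed the adjusted limma test, and 4 were higher at an unadjusted p of 0.05, beside 3.16% of all genes. These were Bcl11b, a transcription factor of these neurons (log2 fold change 0.15, SE 0.052, adjusted p = 0.768), the retinoic acid receptor gene Rarb (0.25), Foxp1 (0.13) and Strip2 (0.16). The lowest p among genes below 0 was that of Rasgrp2 (-0.032, limma adjusted p = 0.962). In HM against WT 17 of 28 were above 0 (49.8% of all genes), with 5 higher at an unadjusted p of 0.05 (3.93% of all genes), Cd4 (0.34, SE 0.079, limma adjusted p = 0.553), Meis2 (0.14), Gpr149 (0.36), Bcl11b (0.12) and Sp9 (0.24), while Lrrc10b led the genes below 0 (-0.086, adjusted p = 0.778). In HM against HT 6 of 28 were above 0 (49.5% of all genes). It was 10 of 28 with the block on animal number, which rests on HM mouse 4 beside HT mice 1 and 2. Rasd2, a small GTPase (-0.12), Strip2 (-0.13) and Scn4b, a sodium channel subunit (-0.092), were lower and Sp9 (0.23) higher at an unadjusted p of 0.05 (1.62% of all genes lower, 2.11% higher). Without 1 mouse at a time the count above 0 in HT against WT was 21 to 27.

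The partners of cAMP and DARPP-32 signalling differed by amounts like those of the members. In HT against WT 13 of 15 were above 0 (median 0.048, with the shares over all genes as above), and Adcy5, which encodes the adenylyl cyclase named above (12509.7 ± 216.3 in HT and 11640.9 ± 375.7 in WT mice, log2 fold change 0.10, SE 0.037, limma adjusted p = 0.768), and Gnal, the alpha subunit that couples receptors to it (0.10, adjusted p = 0.77), had an unadjusted p under 0.05. In HM against WT 10 of 15 were above 0 and none reached that p, with Ppp2r5d (0.061, adjusted p = 0.764) and Ppp1ca (-0.057, adjusted p = 0.814), both parts of phosphatases, at the lowest p in each direction. In HM against HT 3 of 15 were above 0, and Adcy5 (-0.074) and Cdk5r1 (-0.066) reached it, each with an adjusted p of 1. With 1 mouse left out the count above 0 there was 1 to 6. In HM against WT it was 6 with quantile normalization and 8 to 11 with 1 mouse left out. The summed normalized counts of the 15 genes were 139349.4 to 140227.6 in HT mice, above the 133981.5 to 136337.5 of WT mice and the 135244.6 to 137619.1 of HM mice. The sum is weighted towards abundant genes such as Ppp3ca, with a mean of 34691.0, and was not tested.

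Genes outside the projection neurons were read beside these values. Of 8 receptors for opioids, tachykinins, cannabinoids, acetylcholine and dopamine 7 were above 0 in both HT and HM mice against WT mice. Tacr1 (0.24) and Cnr1 (0.094) had an unadjusted limma p under 0.05 in HT mice, and Chrm1 (0.11) in HM mice. Of 5 genes of cholinergic neurons 4 were above 0 in HT mice, with Chat (0.36) and again Tacr1 at that p, and in HM mice 4 of 5 were above 0. Of 6 genes of dopamine neurons 5 were above 0 in HT mice and 6 in HM mice (median 0.221), where Th, the rate-limiting enzyme of dopamine synthesis, read 423.4 ± 47.7 beside 311.5 ± 40.5 in WT mice (SD, n = 4, log2 fold change 0.44, limma adjusted p = 0.553). Th is also in the olfactory bulb list. Cortical excitatory genes were above 0 for 4 of 10 in HT mice and 5 of 10 in HM mice, and none reached that p. Astrocyte markers were above 0 for 6 of 6 in both, oligodendrocyte markers for 2 and 3 of 7 and microglial markers for 3 and 0 of 5. Endothelial markers were above 0 for 4 and 4 of 5, and GABAergic interneuron markers for 3 and 3 of 9. Thalamic markers were above 0 for 5 and 3 of 6, hypothalamic markers for 4 and 3 of 7 and cerebellar markers for 4 and 4 of 7. The cerebellar markers Fat2, Pcp2 and Cbln3 lay near the minimum of 10 normalized counts, and Barhl2, Car8, Neurod1 and Cbln1 lay higher. How much of the cerebellum the samples held was not tested. In these last 8 lists Slc1a2 (0.11), Gad2 (0.11), Pvalb (-0.19) and Vip (-0.13) had an unadjusted limma p under 0.05 in HT mice. In HM mice these were Calb2 (0.17), Pecam1 (0.20), Flt1 (0.18), Tcf7l2 (0.14), Pvalb (-0.22), Tmem119 (-0.18) and Pmch (-0.23). In HM mice all 8 olfactory bulb markers were above 0 against WT mice, 5 of them at an unadjusted p of 0.05, and their summed counts were 4134.8 to 4635.5 in HM and 3541.6 to 4081.3 in WT mice. Eomes, a transcription factor of its output neurons, led this list (68.4 ± 20.2 in HM and 26.1 ± 10.7 in WT mice, log2 fold change 1.39, limma adjusted p = 0.553). All 5 choroid plexus markers were below 0 both in HM mice (median -0.508, 3 at that p, led by Clic6 at -0.51, limma adjusted p = 0.646) and in HT mice (median -0.123, none at that p). All 5 erythrocyte markers were below 0 in HT mice (median -0.828, 5 at that p, led by the beta-globin gene Hbb-bt at -0.95, limma adjusted p = 0.726), and 4 of 5 were above 0 in HM mice (median 0.163, none at that p). Of the tested olfactory bulb markers 2 of 7 were above 0 in HT mice. No gene of these lists passed the adjusted test, and the part of these tissues in the members' values was not tested.

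Covariation between mice was measured after the genotype mean had been taken from each gene's log2 value, so that 12 mice gave 1 estimate. The members covaried only in part. Of the 36 pairs of genes 27 had a Pearson's r above 0, and the median r was 0.303 (jackknife SE 0.198 over mice). The values ran from -0.267 for Ppp1r1b and Pde10a to 0.718 for Drd1 and Rgs9. With all other tested genes each member had r above 0 for 49.6% to 50.8% of them. The 36 pairs share genes and mice, so they are not independent. Exact shuffles within genotypes gave 2 pairs with an unadjusted permutation p under 0.05 by Pearson's r and 3 by Spearman's rho, and none after Benjamini-Hochberg adjustment over the 36 pairs by either measure. Without WT mouse 4 and HT mouse 2, those farthest from the median of the members' mean, 21 pairs were above 0 and the median r was 0.106.

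**Figure D3:**
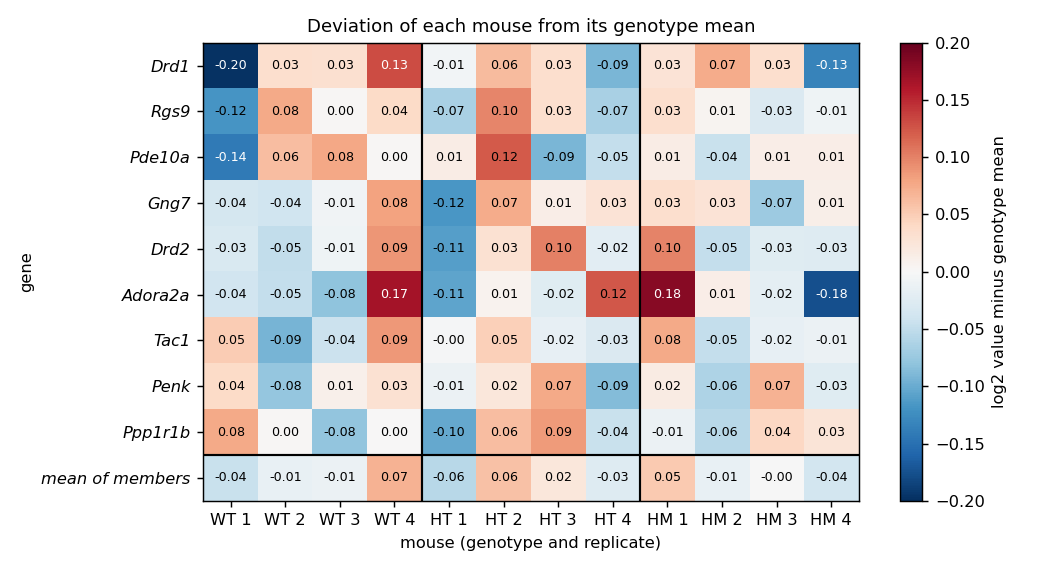
Deviation of each mouse (x axis) from its genotype mean for each gene and for the mean of the 9 (y axis), on the log2 scale, with red above and blue below the mean. WT mouse 4, HT mouse 2 and HM mouse 1 lie highest on the mean of the 9 (0.07, 0.059 and 0.052).

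The 2 pairs at an unadjusted permutation p under 0.05 by Pearson's r were Drd1 with Rgs9 and Drd2 with Gng7. A share of 0.05 of unrelated pairs falls under that p, so 2 of 36 is near what chance gives. Of all other genes 99.0% had a lower r with Drd1 than Rgs9 had, and 98.6% a lower r with Drd2 than Gng7 had. Drd1 and Rgs9 had r = 0.718 (permutation p = 0.0217, adjusted p = 0.457) and rho = 0.769 (permutation p = 0.0116, adjusted p = 0.302). Leaving out WT mouse 1 and HM mouse 4, farthest from the median of Drd1, r was 0.605, and without WT mouse 1 alone it was 0.459. Drd2 and Gng7 had r = 0.704 (permutation p = 0.0424, adjusted p = 0.457) and rho = 0.685 (permutation p = 0.0376, adjusted p = 0.451), and r was 0.846 without HT mouse 3 and HM mouse 1. With single mice left out it was lowest without HT mouse 1 (0.513) and without WT mouse 4 (0.617). After centring also on the first digits of the animal number in the column names, r was 0.716 for the first pair and 0.627 for the second. The third pair by Spearman's rho was Adora2a and Gng7 (rho = 0.741, permutation p = 0.0168, adjusted p = 0.302; r = 0.564). Pde10a and Rgs9 had r = 0.656 (permutation p = 0.106), but r was -0.509 without WT mouse 1 and HT mouse 2, so that relation rested on these mice.

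The 300 bases around the transcript starts of the genes in those 2 pairs are shown because these pairs had the highest r. They run from 250 bases before to 50 after the start in RefSeq on GRCm38.p6, at chr13:54055609-54055908 on the minus strand for Drd1, chr11:109298132-109298431 on the minus strand for Rgs9, chr9:49340153-49340452 on the plus strand for Drd2 and chr10:81014876-81015175 on the minus strand for Gng7. Capitals mark GGGCGG and its reverse complement CCGCCC, the GC box.
Drd1: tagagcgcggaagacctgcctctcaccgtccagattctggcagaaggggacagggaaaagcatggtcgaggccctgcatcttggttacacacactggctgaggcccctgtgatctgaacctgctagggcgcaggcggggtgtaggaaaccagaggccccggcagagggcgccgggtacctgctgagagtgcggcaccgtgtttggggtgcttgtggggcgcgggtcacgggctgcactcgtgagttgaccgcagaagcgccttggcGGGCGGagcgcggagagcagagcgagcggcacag
Rgs9: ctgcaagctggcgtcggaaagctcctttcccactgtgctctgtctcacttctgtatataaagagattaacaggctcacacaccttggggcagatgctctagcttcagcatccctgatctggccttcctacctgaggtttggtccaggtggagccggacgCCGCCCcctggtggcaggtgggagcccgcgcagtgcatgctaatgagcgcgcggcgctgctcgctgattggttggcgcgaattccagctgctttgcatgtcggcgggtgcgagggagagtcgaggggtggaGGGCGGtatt
Drd2: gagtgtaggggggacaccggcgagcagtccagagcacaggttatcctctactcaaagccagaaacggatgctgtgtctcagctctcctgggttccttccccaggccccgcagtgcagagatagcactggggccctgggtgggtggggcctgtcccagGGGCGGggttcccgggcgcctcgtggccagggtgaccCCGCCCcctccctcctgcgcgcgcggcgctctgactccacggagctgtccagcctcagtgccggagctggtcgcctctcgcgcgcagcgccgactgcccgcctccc
Gng7: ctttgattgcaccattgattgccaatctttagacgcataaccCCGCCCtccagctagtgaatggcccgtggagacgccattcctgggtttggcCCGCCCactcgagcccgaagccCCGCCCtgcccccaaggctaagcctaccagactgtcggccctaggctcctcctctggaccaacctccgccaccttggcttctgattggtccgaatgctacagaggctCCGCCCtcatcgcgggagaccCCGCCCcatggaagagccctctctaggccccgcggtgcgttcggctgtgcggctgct

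In the printed windows the GC box was found 1 time for Drd1, 2 times for Rgs9, 2 times for Drd2 and 5 times for Gng7. It was held by 35.7% of 32851 promoter windows of this length. In the same 4 windows TGACGTCA (1.79% of all windows), TGACG (20.8%), CACGTG (7.15%) and GCGTGGGCG (0.612%), searched on both strands, were not found, and TATAAA (13.6%) was found 1 time, for Rgs9. Drd1 and Gng7 each have a second window in the table, not printed, around another transcript start. That of Drd1 held the GC box 1 time, and that of Gng7 held no GC box, TGACG 1 time and CACGTG 1 time. Tac1 held TGACG 2 times, CACGTG 1 time and the GC box 1 time, and each of the 2 windows of Pde10a held only the GC box, 1 time. Windows were at hand for 6 of the 9 genes, and not for Adora2a, Penk and Ppp1r1b.

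Pairs of the same pathway were not uniformly alike. Drd1 and Tac1, the direct pathway genes, had r = 0.029. The 3 pairs of indirect pathway genes ran from 0.01 for Adora2a and Penk to 0.607 for Drd2 and Adora2a, with a median of 0.519. The 6 pairs that join the pathways ran from 0.137 to 0.566 with a median of 0.448. The 6 pairs among the genes of both pathways ran from -0.267 to 0.656. These classes were not compared by a test, since pairs share genes and mice.

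**Figure D4:**
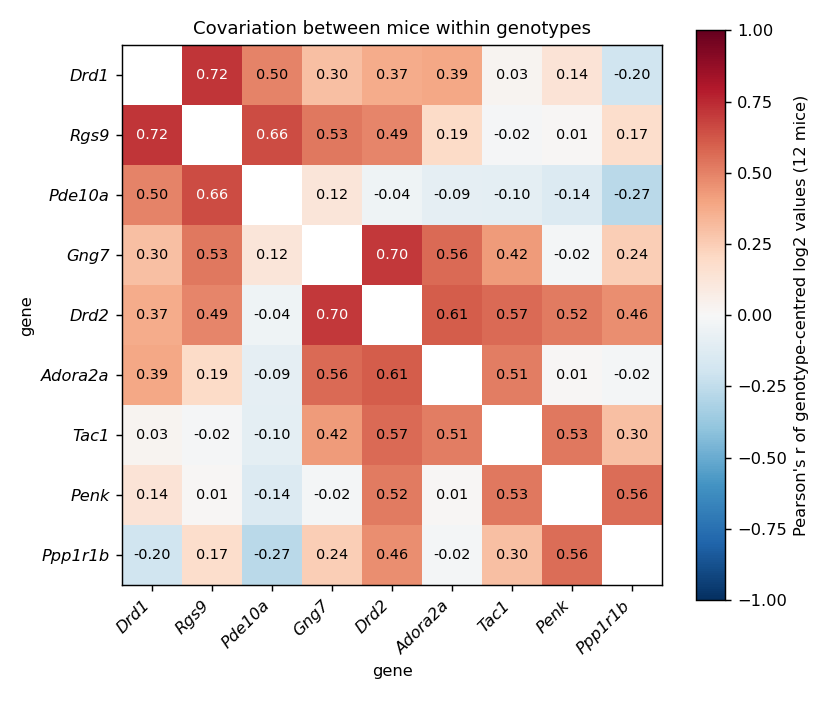
Pearson's r (colour and number) of genotype-centred log2 values over 12 mice for each pair of genes (both axes). The highest value is 0.718 for Drd1 and Rgs9, and Pde10a has r below 0 with 5 of the other 8 genes.

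Single mice stood out for several genes at once. WT mouse 4 was the highest WT mouse for Drd1, Drd2, Adora2a, Tac1 and Gng7. HT mouse 2 was the highest HT mouse for 5 genes and HT mouse 1 the lowest for 5. HM mouse 1 was the highest HM mouse for 6 genes and HM mouse 2 the lowest for 5. WT mouse 1 was lowest for Drd1, Pde10a and Rgs9 but highest for Penk and Ppp1r1b. Drd2 followed the mean of the other 8 members most closely (r = 0.795, higher than 99.7% of other genes), followed by Gng7 (0.638) and Rgs9 (0.626), and Pde10a least (0.146, higher than 64.7%).

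The genes closest to the mean of the 9 members across mice were chosen by r alone, and 0.345% of 17997 other genes had an r of at least 0.8. They were Axl (r = 0.927), Stra6 (0.898), Exd1 (0.897), Six3os1 (0.89) and Nhsl1 (0.883), then Fsip1, Gm44250, Lama5, Chrnb1 and 4930456G14Rik, down to 0.867. Axl is a receptor tyrosine kinase and Stra6 a receptor for the carrier of retinol. The 5 genes at the other end were Snap25, a protein of synaptic vesicle fusion (r = -0.951), Asap1 (-0.94), Gtf2h1 (-0.914), Creg2 (-0.901) and Pak1 (-0.89), and 0.322% of genes had r of -0.8 or less. For single members the closest genes were Gm16001 for Drd1 (0.983), Gm44250 for Drd2 (0.948), Trpm6 for Adora2a (0.935), Gm29367 for Penk (0.922) and Cmbl for Tac1 (0.943). They were Lgals9 for Ppp1r1b (0.894), Msi2, an RNA-binding protein, for Pde10a (0.965), Gm37255 for Rgs9 (0.951) and Naip2 for Gng7 (0.938). No member was the closest gene of another member. These values come from the same libraries and the same normalization as the members.

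Lists of other cells also followed the members between mice. The mean of the 28 further projection neuron genes had r = 0.654 with the mean of the members, and 22 of 28 had a single r above 0 beside 49.8% of all genes. Single values of these 28 ran from -0.826 for Ebf1 to 0.768 for Sh3rf2. Endothelial markers had r = 0.666, hypothalamic markers 0.617, choroid plexus markers 0.552 and microglial markers 0.544. Astrocyte markers had 0.469, thalamic markers 0.413, cholinergic genes 0.446, the cAMP partners 0.49 and the receptor list 0.245. Of the 15 cAMP partners 9 had a single r above 0, and the values ran from -0.547 for Ppp3ca to 0.813 for Adcy5. The endothelial gene Slco1a4 had 0.816. Cortical excitatory markers had r = -0.754, with 2 of 10 single genes above 0, olfactory bulb markers -0.469, oligodendrocyte markers -0.331, interneuron markers -0.31 and dopamine neuron genes -0.152. Erythrocyte markers (0.0781) and cerebellar markers (0.0109, with Gabra6 not analysed here) had values near 0. Endothelial summed counts spanned 4773.9 to 6426.9 in WT mice, and the share of each tissue in the dissected brains was not measured, so its part in the members' covariation was not tested.

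**Figure D5:**
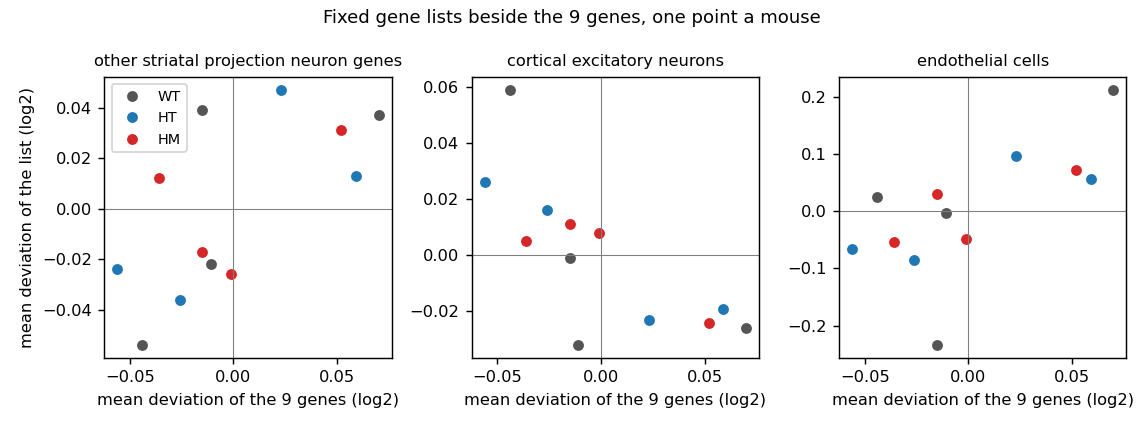
Mean deviation of 3 gene lists (y axes, log2) against that of the 9 members (x axis, log2), 1 point for each of 12 mice coloured by genotype. The lists of projection neuron and endothelial genes rise with the members (r = 0.654 and 0.666) and the cortical excitatory list falls (r = -0.754).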

How the data were processed

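RNA from 12 mouse brains, described as whole, was purified on poly-T beads and sequenced by the authors as paired-end reads. Per the labels and methods, the authors quantified reads with Salmon 1.1.0 against GRCm38 with GC bias correction, summed them to genes with tximport and normalized them with DESeq2 1.30.1. The deposited signal is the normalized count, that is a count divided by the size factor of its library. Whole reads could not be recovered, since at most 10.1% of low values were whole multiples of a step (tolerance 0.02), so count models were not used. Symbols, positions and lengths came from the gene annotation on GRCm38, which named 19758 of 19775 identifiers, and 17 were not named.

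Each pair of genotypes was fitted in limma (version 3.58.1, R 4.3.3), using log2 of the normalized count plus 1 and a variance trend. Genes averaging under 10 over the 8 mice were left out. Tests were two-sided, with Benjamini-Hochberg adjustment over all genes and a threshold of 0.05. On this scale the change of low genes is understated. Exact permutation tests over 4 against 4 mice were run beside it. Covariation used Pearson's r and Spearman's rho of genotype-centred values with all 13824 shuffles within genotypes, in Python 3.11.15. The scripts were tested on simulated data. The members and gene lists were chosen with earlier results of these data known. The rule for named genes took the 9 members, genes past the adjusted threshold, the gene with the smallest p in each direction per list and comparison, the 10 genes with the highest and 5 with the lowest r to the members' mean, and the closest gene of each member. Ppp3ca and other list genes named at an unadjusted p under 0.05 were added after their values were seen. So were Slco1a4, the list genes at the ends of a range of r and the cerebellar markers named by their level. Alternatives were a pseudocount of 0.1, no filter, 1 fit of all mice, a replicate block, a block on animal number, quantile and TMM normalization (the latter written out by hand, factors 0.9983 to 1.0014), and leaving out each mouse.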

Additional observations from a re-analysis of the deposited data

Results flagged for a closer look

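In 3 of the 27 groups of 4 mice (9 genes in 3 genotypes) 1 mouse lay far from the other 3, with a gap to the nearest mouse, as a share of the group's whole range, above Dixon's 95% critical value. Chance gives about 1 such group in 20. Drd2 in HM mouse 1 was 1196.8 normalized counts, with a gap of 0.848 of the range. Adora2a in WT mouse 4 was 1713.8, with 0.846. Pde10a in HM mouse 2 was 10220.2, with 0.971, below the other 3 HM mice, which lay within 10634.7 to 10646.9.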

How the results depend on the processing

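The direction of each member in each comparison was unchanged in 185 of 189 values from settings with all mice and in 203 of 216 with 1 mouse left out, and no member passed an adjusted p of 0.05 in any of them. With a block on the first digits of the animal number, only mice that share them with the other genotype enter the estimated difference. In HT against WT this leaves out WT mouse 1, and the log2 fold change was -0.01 for Rgs9. In HM against WT it leaves HM mice 3 and 4 and WT mice 1 and 2. There the value was 0.013 for Drd1 and 0.007 for Penk, with 5 of 9 members above 0. In HM against HT it leaves HM mouse 4 beside HT mice 1 and 2. There Drd1 was -0.287 in place of -0.12 and Adora2a -0.236 in place of -0.11. Ppp1r1b was -0.056 in place of -0.10 and Gng7 -0.065 in place of -0.098. In HT against WT the same block gave 0.036 for Drd1 and 0.053 for Pde10a. Quantile normalization gave -0.005 for Rgs9 in HM against WT. With 1 mouse left out, HT against WT ran from -0.003 to 0.062 for Rgs9, -0.02 to 0.04 for Tac1 and -0.002 to 0.061 for Ppp1r1b. HM against WT ran from -0.084 to 0.026 for Drd1, -0.093 to 0.026 for Adora2a and -0.037 to 0.028 for Rgs9, with 2 to 5 members above 0. HM against HT ran from -0.048 to 0.023 for Pde10a and -0.063 to 0.008 for Drd2, with 0 or 1 member above 0. The cause was not tested.

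Genes called over the whole table numbered 1 in HT against WT, 2 in HM against WT and 1 in HM against HT. The gene was Slc6a20a in all 3, with Gtf3c4 as the other in HM against WT (log2 fold change 0.416, limma adjusted p = 0.00446). The count in HM against WT was 1 with a replicate block and 3 with 1 fit of all mice. In HM against HT it was 2 with no filter and 3 with the block on animal number. With 1 mouse left out it was 1 to 5 in HT against WT (5 without HT mouse 3, 2 without WT mouse 2), 2 to 3 in HM against WT and 1 to 7 in HM against HT (7 without HM mouse 2 or 3, 3 without HT mouse 3 or 4, 2 without HT mouse 2). Mice of the same replicate number correlated at r = -0.066 to 0.087 over 12 pairs, none above 0.1, and 4 of 12 mice correlated best with a mouse of their own number, so the numbers were not taken as pairs. Mice of different genotypes with the same first digits of the animal number correlated at r = -0.066 to 0.122 over 10 pairs, 1 above 0.1. Their median was 0.024, beside -0.015 over 29 pairs that shared neither number. The replicate block changed no call of a member. With it 31 of 36 member pairs had r above 0. Over single mice left out 23 to 33 pairs had r above 0 and the median r was 0.182 to 0.395. DESeq2's Wald test was not run because the values are not counts. The number of mice and the unknown depth limit the precision.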
